A study of Mus musculus with 8 samples.

Results

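A set of regulators of epithelial identity were examined for binding of ZFP281, a zinc finger protein that regulates pluripotency genes in stem cells. They were the 10 protein-coding genes Esrp1, Esrp2, Grhl1, Grhl2, Grhl3, Ovol1, Ovol2, Elf3, Ehf and Kdf1, chosen by name, of 21887 in the annotation of chromosomes 1 to 19, X and Y (mm10). A binding summit, a position of 1 bp with a score from the authors' peak calling, was assigned to a gene when it lay in the gene or within 20 kb of either end. Chromatin immunoprecipitation sequencing had been carried out on spheres from MMTV-HER2/Neu mice on the FvB background, in which the mouse mammary tumour virus promoter drives the HER2/Neu oncogene in mammary epithelium. The early lesion (EL) group came from animals of 14 to 18 weeks with no palpable tumour, and the primary tumour (PT) group from animals older than 20 weeks with primary tumours. All cells were grown for 7 days in mammosphere medium on plates of ultra-low adhesion, so both groups hold the cells that survive this culture. ZFP281 was precipitated in 3 libraries of each group, which the labels call biological replicates without naming animals. The input of each group was not analysed here. The tissue label reads mammary lung for EL and breast tumor for PT, and the cell type label breast cancer cells for both. Binding summits measure neither expression nor cell type, so these labels could not be checked against markers, and a share of cells with binding cannot be told apart from binding per cell.

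As background, epithelial identity is held by a small network of regulators. The grainyhead-like factors (GRHL) activate junction genes, OVOL zinc finger repressors silence inducers of epithelial to mesenchymal transition (EMT) such as Zeb1, and the ESRP proteins direct epithelial splicing. The ETS factors ELF3 and EHF act in glandular and surface epithelia, and KDF1 restrains proliferation of epidermal progenitors. In the mammary gland, loss of this network accompanies EMT, and its return accompanies the epithelial growth of tumours.

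Promoter sequences of RefSeq (GRCm38.p6, the mm10 build) were matched by symbol for 5 of the 10 members, in 6 windows that run from 250 bases before a start site to 50 after. No summit of any library fell in these 6 windows. The share of all promoter windows with a summit is not given here, so this absence has no background. Sequences before the start site are shown for Kdf1, whose summits at a gene end were found in PT libraries, for Grhl3, whose summits among the top-scoring ones were found in PT libraries, and for Elf3, which had no summit. The G-rich sequence GGGGAGGGG known for ZFP281 was found on neither strand of any of the 6 windows, and 6.37% of all 32851 promoter windows of this length hold it. The E-box CACCTG, bound by SNAI and ZEB repressors, was found on either strand in the Kdf1, Grhl3 and Elf3 windows, against 20.2% of all windows. With no copy of GGGGAGGGG in these windows, the 2 motifs could not overlap there. Letters are from the C57BL/6J reference, not from FvB, and run 5′ to 3′ on the strand of the gene, with CACCTG or its reverse complement CAGGTG in capitals. The Kdf1 run ends 5 bases after the start site to complete the motif.
Kdf1, chr4:133518713-133518967, plus strand: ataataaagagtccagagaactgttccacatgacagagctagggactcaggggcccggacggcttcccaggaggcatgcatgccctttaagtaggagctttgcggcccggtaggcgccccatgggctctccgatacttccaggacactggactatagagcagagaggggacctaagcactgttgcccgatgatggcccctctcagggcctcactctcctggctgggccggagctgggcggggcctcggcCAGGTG
Grhl3, chr4:135573633-135573882, minus strand: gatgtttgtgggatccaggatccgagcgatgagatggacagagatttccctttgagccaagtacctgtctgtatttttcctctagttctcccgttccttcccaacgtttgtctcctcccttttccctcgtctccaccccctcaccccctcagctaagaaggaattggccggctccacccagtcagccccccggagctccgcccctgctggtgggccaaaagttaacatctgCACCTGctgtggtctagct
Elf3, chr1:135258473-135258722, minus strand: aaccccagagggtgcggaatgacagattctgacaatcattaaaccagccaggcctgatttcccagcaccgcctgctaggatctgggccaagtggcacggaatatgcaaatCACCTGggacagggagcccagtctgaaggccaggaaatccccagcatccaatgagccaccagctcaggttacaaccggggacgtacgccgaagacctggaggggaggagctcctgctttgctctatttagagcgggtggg

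The EL lists held between 7055 and 15770 summits, with EL replicate 2 the longest, and the PT lists at most 6033, with PT replicate 1 the shortest. Read depth is unknown. Because the lists differ in length, the members were also counted in top lists, which hold as many top-scoring summits of each library as the shortest list has in all. This limit keeps the whole of PT replicate 1 and 18.4% of EL replicate 2. Ranks count from the highest score of a list, and a percentile is the share of the list at or below a score. Scores are the authors' own, and ranks from lists of unequal length do not by themselves show a change.

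In full lists the members carried summits in both groups. Summits at the 10 genes numbered 7, 15 and 5 in EL and 6, 7 and 11 in PT, or 9 ± 5.29 and 8 ± 2.65 (SD, n = 3 each), and the groups overlapped. Per 1000 summits of the list they came to 0.815, 0.951 and 0.709 in EL and 2.07, 1.74 and 1.82 in PT. On this scale every PT library was above every EL library, but all genes were not counted on it. The part of list length in this difference therefore cannot be told apart. Without EL replicate 2, the longest list, the EL mean number of summits was 6. At least 1 summit was found at 4, 6 and 4 members in EL and at 4, 7 and 7 in PT. Of all protein-coding genes, 34.7%, 48.4% and 30.7% had a summit in the EL libraries, in the same order, against 16.7%, 21.6% and 29% in the PT libraries. In at least 1 library 8 of 10 members were bound, against 51.4% of all genes, and in top lists 6 of 10 against 27.9%. A summit in all 3 EL and no PT library was found at 0 members, against 5.19% of genes, and the reverse at 0 members, against 0.206%. The EL counts of members thus lay near the share of all genes and the PT counts above it. The median length of the members was 29.3 kb against 17.2 kb for all genes, and the part of gene length in these counts was not tested.

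**Figure D1:**
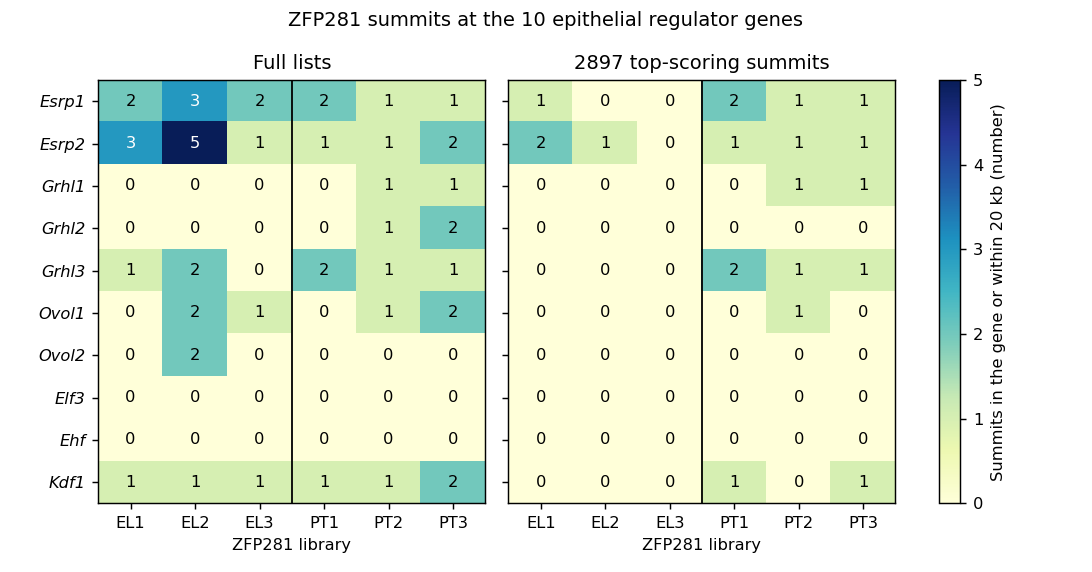
Number of ZFP281 summits in each member gene or within 20 kb (colour and printed number) by library, EL1 to EL3 and PT1 to PT3, in full lists (left) and in the top lists (right). Full lists hold summits in both groups, while among top-scoring summits the EL columns hold 3, 1 and 0 and the PT columns 6, 5 and 5.

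In the top lists the groups stood apart. Summits at the members numbered 3, 1 and 0 in EL and 6, 5 and 5 in PT, or 1.33 ± 1.53 and 5.33 ± 0.577 (SD, n = 3 each). Members with such a summit numbered 2, 1 and 0 in EL and 4, 5 and 5 in PT, or 1 ± 1 and 4.67 ± 0.577 (SD, n = 3 each). Every PT library lay above every EL library on both counts. Of all protein-coding genes, 16.9%, 17.6% and 17.2% had a top-scoring summit in EL. In PT the shares were 16.7%, 16.9% and 16.9%, so the background differed little between groups. No p is given for these sums, because the members were named with results of these data known. The boundary of the top lists lay close to some members. In EL replicate 1 an Esrp2 summit at rank 2749 was just inside and the Grhl3 summit at rank 2976 just outside, with a score of 12.4 against 12.5 for the last summit kept. In PT replicate 2 the Kdf1 summit at rank 3280 was outside.

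**Figure D2:**
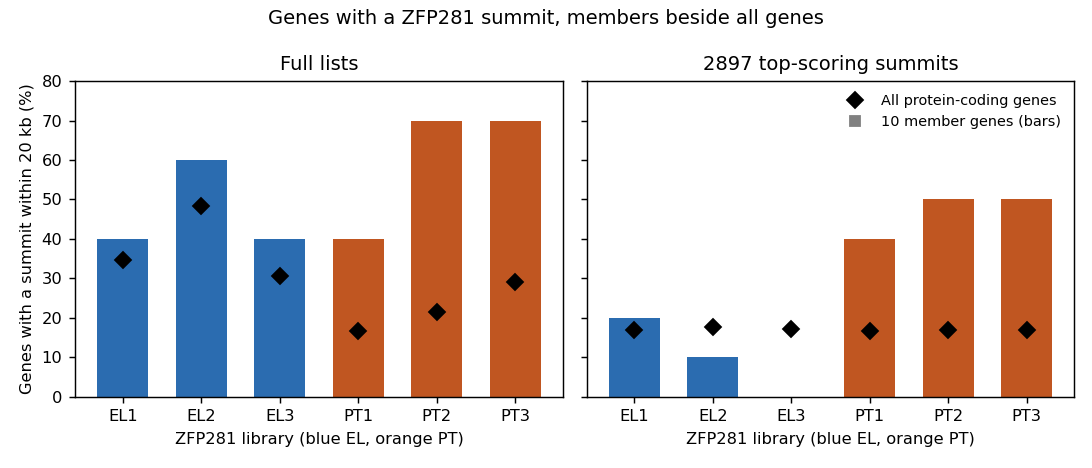
Percentage of the 10 member genes (bars, blue EL and orange PT) and of 21887 protein-coding genes (black diamonds) with a ZFP281 summit in the gene or within 20 kb, by library, in full lists (left) and in top lists (right). On the right the diamonds lie between 16.7% and 17.6%, the 3 PT bars stand above them, and the bars of EL replicates 2 and 3 below.

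The 2 splicing regulator genes were bound in every library in full lists. Esrp1 and Esrp2 encode RNA-binding proteins that favour epithelial exons in genes such as Fgfr2 and Cd44. Both had a summit in all 6 full lists, as did Kdf1, so 3 of 10 members against 13% of all genes. In top lists no member was bound in all 6 libraries, against 8.76% of genes. Esrp1 (chromosome 4, 11331933 to 11386783) had 2, 3 and 2 summits in EL and 2, 1 and 1 in PT. All but 1 of them lay within 1 kb of the upper gene boundary, where a summit was found in every library, as at 4.39% of all genes. The exception, in EL replicate 2, lay 9787 bp below Esrp1 and 8 bp from the boundary of Dpy19l4.

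At the upper end of Esrp1 the summits formed 2 main regions. One, from 11386733 to 11386837, spanned the gene boundary and was found in EL replicates 1 and 2 and in all 3 PT libraries. It ranked 2602 and 4756 in EL and 764, 664 and 1747 in PT, so the PT ranks were nearer the top. It had percentiles of 69.9 and 70.03 in EL and 73.6, 83.5 and 71.1 in PT. The other, from 11385877 to 11386053 inside the gene, was found in all 3 EL libraries at percentiles of 9.31, 54.9 and 27.8, and in PT replicate 1 at 65.8. EL replicate 3 lacked the boundary region and held a summit of percentile 11.1 between the 2 regions. Among top-scoring summits Esrp1 was counted 1, 0 and 0 times in EL and 2, 1 and 1 times in PT, so the groups overlapped.

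Esrp2 (chromosome 8, 106130319 to 106137193) carried the member region found in all 6 libraries and the highest member scores. The region lay inside the gene from 106135004 to 106135346, 1847 bp from the upper boundary. It ranked 1952, 2145 and 5233 in EL and 233, 329 and 163 in PT. Its score stood at percentiles of 77.7, 86.5 and 27.8 in EL and 92.1, 91.9 and 97.3 in PT. PT replicate 3 was highest and EL replicate 3 lowest, and the groups did not overlap on either measure. Of the 1573 regions found in all 6 libraries, 23.3% had ranks nearer the top in every PT than in every EL library, and 4.13% had higher percentiles in every PT library. The opposite patterns made up 13.7% and 36.4%. In rank a long list works against EL and in percentile it works for EL, so the 2 backgrounds differ.

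Around that region Esrp2 had further summits, mostly in EL. The EL full lists held 3, 5 and 1 summits there, and the PT lists 1, 1 and 2. A region from 106148448 to 106148463, found in EL replicates 1 and 2 alone, lay 11255 bp above Esrp2 and 1891 bp from Pla2g15, a lysosomal phospholipase gene. The other 5 summits were each found in 1 library, at percentiles between 0.152 and 51.7. Among top-scoring summits Esrp2 was counted 2, 1 and 0 times in EL and once in every PT library, a mean of 1 in both groups.

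Of the 3 grainyhead-like genes, Grhl3 was bound in most libraries and Grhl1 and Grhl2 in PT libraries. GRHL proteins bind enhancers of junction genes such as Cdh1 and keep them open. Grhl3 (chromosome 4, 135541887 to 135573632), which acts in skin barrier formation and wound closure, had 1, 2 and 0 summits in EL and 2, 1 and 1 in PT. Its main region, from 135570237 to 135570340, lay inside the gene, 3292 to 3395 bp downstream of the start site whose upstream sequence is shown above. EL replicates 1 and 2 had ranks of 2976 and 4532 there, and the PT libraries 519, 559 and 1309. The scores stood at percentiles of 65.4 and 71.4 in EL and 82.2, 86.3 and 78.4 in PT, and EL replicate 3 had no summit.

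Grhl3 was thus the member whose top-scoring summits were found in all 3 PT libraries and in no EL library. It had 0 in each EL library and 2, 1 and 1 in PT. The difference in mean, EL minus PT, was -1.33 summits at Grhl3 (two-sided exact permutation p = 0.1, with an adjusted p of 1 over all genes). This pattern was found at 1.42% of all protein-coding genes and at 1 of 10 members, and the reverse at 1.64% of genes and at no member. The second PT replicate 1 summit lay deep in the gene at 135548833, at a percentile of 15.7 and a score of 5.34. It was counted because the whole of that list is kept. The last score kept was 12.5, 23.3 and 10.3 in EL and 1.42, 6.61 and 8.74 in PT. The Grhl3 summit of EL replicate 2, with a score of 15.5, was thus left out, so the pattern depends on these unequal limits.

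Grhl1 (chromosome 12, 24572232 to 24617391) had no summit in any EL library or in PT replicate 1, and 1 in each of PT replicates 2 and 3. Both lay in 1 region from 24592419 to 24592507, inside the gene and 20132 to 20220 bp downstream of its first listed start site. They ranked 1164 and 1604, at percentiles of 71.1 and 73.3, so both were among the top-scoring summits. Outside the 20 kb, the nearest summit of any library lay 117 kb away. Two-sided exact permutation p was 0.4 (adjusted p = 1).

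Grhl2 (chromosome 15, 37232821 to 37363569), the longest member at 131 kb and the grainyhead gene known for Cdh1 and Zeb1 control, had summits of low score. None was found in EL or in PT replicate 1, while PT replicate 2 had 1 and PT replicate 3 had 2. A region 5933 bp below the gene, from 37226756 to 37226888, was found in both at percentiles of 0.0744 and 8.58. The summit inside the gene, in PT replicate 3, was at a percentile of 15.2. Grhl2 therefore had no summit among the top-scoring ones in any library.

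**Figure D3:**
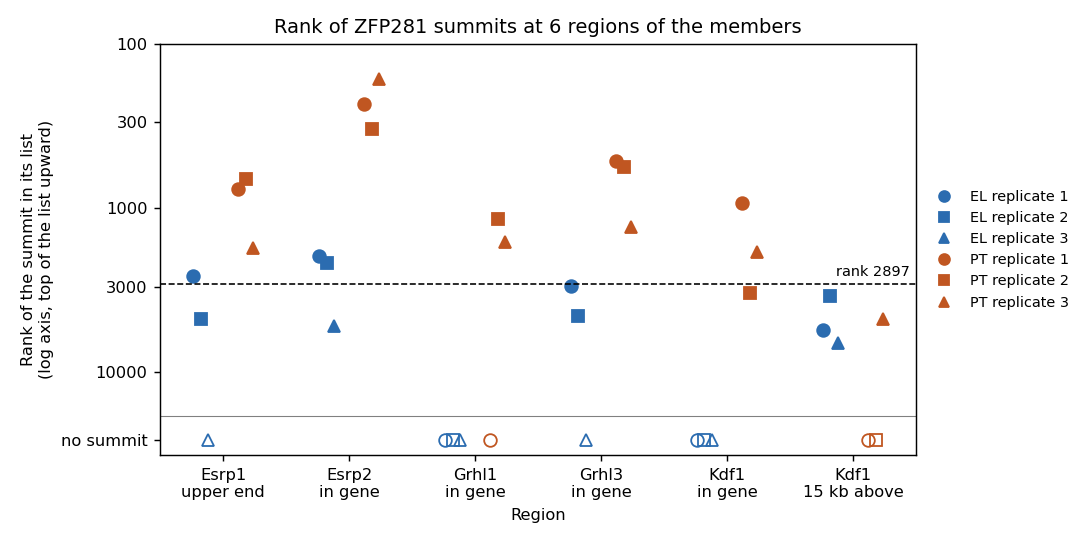
Rank of the ZFP281 summit in its list (log axis, top of the list upward) at 6 regions of Esrp1, Esrp2, Grhl1, Grhl3 and Kdf1, by library (colour for group, marker for replicate, open markers for no summit, dashed line at the limit of the top lists). At Esrp1, Esrp2 and Grhl3 the PT ranks of 163 to 1747 lie nearer the top than the EL ranks of 1952 to 5233 or no summit, and the last region, above Kdf1, shows EL summits at ranks 3417 to 6615.

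The Ovo-like genes were bound in few libraries and at scattered positions. OVOL1 and OVOL2 are transcriptional repressors, and OVOL2 and ZEB1 repress each other. Ovol1 (chromosome 19, 5549137 to 5560575) had 0, 2 and 1 summits in EL and 0, 1 and 2 in PT, with equal means of 1. Its 6 summits fell into 5 regions. One, from 5529342 to 5529540, was shared by EL replicates 2 and 3 near the limit of reach, 19597 bp below the gene. Inside Ovol1 lay 1 summit, of PT replicate 2 at 5554458, with a rank of 1455 and a percentile of 63.9. The 3 summits above the gene, in EL replicate 2 and PT replicate 3, lay inside the neighbouring gene Ap5b1 at percentiles of 4.12 to 27.0.

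Ovol2 (chromosome 2, 144305175 to 144332080) had summits in EL replicate 2 alone, the longest list. One lay 385 bp upstream of the start site at 144331362, inside the annotated gene, at a percentile of 2.96. The other lay 17620 bp below the gene and 6328 bp from Mgme1, at a percentile of 56.7. Neither was among the top-scoring summits.

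The ETS factor genes Elf3 (chromosome 1, 135253574 to 135258472) and Ehf (chromosome 2, 103263431 to 103303275) had no summit within 20 kb in any of the 6 libraries, as did 48.6% of all genes. Their products are epithelium-specific members of the ETS family. The nearest summits lay between 69.962 and 172 kb from Elf3 and between 136 and 265 kb from Ehf, depending on the library. With depth unknown, a count of 0 says that no summit was called and not that binding is absent.

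At Kdf1 (chromosome 4, 133518733 to 133530790) the summits lay at 2 places, 1 of them found in PT libraries alone. Each EL library had 1 summit and the PT libraries had 1, 1 and 2, so the total hid the difference in position. The region from 133519078 to 133519096 was found in all 3 PT libraries and in no EL library, 115 to 133 bp downstream of the Kdf1 start site. It also lies inside Gm42323, 771 bp from the boundary of that gene, so it cannot be assigned to Kdf1 alone. Its percentiles were 68.2, 18.6 and 69.2 in PT replicates 1, 2 and 3, and its ranks 925, 3280 and 1861. A summit near a gene boundary in all PT and no EL library was found at 0.0457% of all genes, and the reverse at 1.94% of genes and at no member. This pattern of Kdf1 was known before the members were chosen.

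The EL summits of Kdf1 lay 14951 bp above the gene, in a region from 133545741 to 133545796 inside Nudc, 259 bp from the boundary of that gene. Nudc encodes a nuclear migration protein. The region was found in all 3 EL libraries at percentiles of 35.6, 78.3 and 6.26, and in PT replicate 3 at 22.3. No EL summit at Kdf1 was among the top-scoring ones, and PT replicates 1 and 3 had 1 each. The nearest summits outside the reach, which were not counted, lay below Kdf1 in every library. In EL they were 24.785, 20.569 and 24.847 kb away at ranks 4580, 14380 and 3996, and in PT 26.7 to 26.8 kb away at ranks 630, 877 and 2019.

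**Figure D4:**
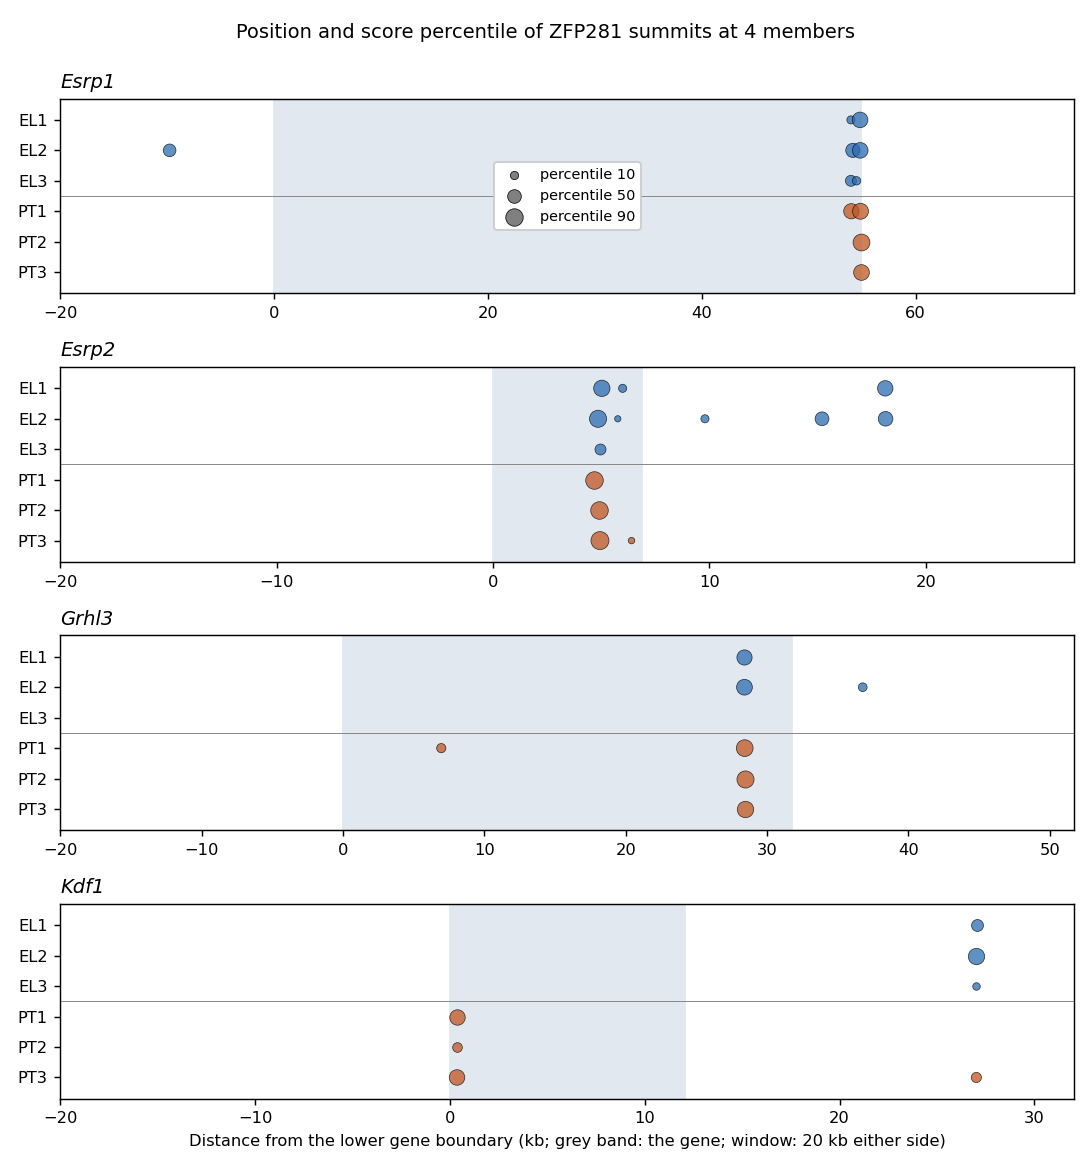
Position of every ZFP281 summit in or within 20 kb of Esrp1, Esrp2, Grhl3 and Kdf1, as distance from the lower gene boundary (kb), by library (rows, blue EL and orange PT), with the gene as a grey band and marker size for the score percentile. Most summits of Esrp1 lie at the upper gene end, Esrp2 has summits at 1 place in all 6 libraries and Grhl3 at 1 place in all but EL replicate 3, while at Kdf1 every PT library has a summit at the lower gene end and all EL summits 14951 bp or more above the gene.

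Joining summits no more than 200 bp from each other, whatever their library, gave 26 regions at the members. Of these, 16 were found in 1 library, 8 of them in EL replicate 2. The Esrp2 region was found in all 6 libraries, as were 8.14% of all regions, and the Kdf1 region in all 3 PT and no EL library. No region was found in all 3 EL and no PT library, a class of 10% of all 19317 regions, against 0.704% for all 3 PT and no EL. Inside the genes lay 14 regions, 4 of them in EL libraries alone and 6 in PT libraries alone. Outside lay 12 regions, 8 in EL libraries alone and 3 in PT libraries alone. Top-scoring summits inside the genes numbered 2, 1 and 0 in EL and 6, 4 and 4 in PT, and outside 1, 0 and 0 in EL and 0, 1 and 1 in PT. Top-scoring summits at the members thus lay mainly inside the genes in both groups. The shares of all regions found inside genes, outside genes or in 1 library were not counted.

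Gene by gene, no difference passed a test. The exact permutation test of 3 against 3 libraries cannot give a p below 0.1, and it called 0 of 21887 genes in either kind of list, with 0 genes at an unadjusted p under 0.05. In full lists the members' exact permutation p ranged from 0.3 at Esrp1 to 1, two-sided, with an adjusted p of 1 for all 10. The mean number of summits, EL minus PT, was 1.67 at Esrp2, 1 at Esrp1, 0.667 at Ovol2, -0.333 at Grhl3 and Kdf1, -0.667 at Grhl1 and -1 at Grhl2. In full lists no member had more summits in every EL than in every PT library, against 9.26% of all genes, and none the reverse, against 0.274%.

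Genes that act with the members were counted in the same way, from lists also drawn up with earlier results known. Of 32 epithelial junction and surface genes, 21, 25 and 19 had a summit within 20 kb in EL and 16, 18 and 23 in PT in full lists. Top-scoring summits lay at 7, 9 and 8 of them in EL and 16, 16 and 19 in PT, and the groups did not overlap. In 8 of these genes every PT library had more top-scoring summits than every EL library, against 1.83% of all genes, and in 1 the reverse, against 2.12%. They included, named after their values were seen, Cdh1, Cldn3, Cldn4, Marveld3, Pard6b, Prss8 and Spint2, which encode E-cadherin, tight junction and polarity proteins, a surface protease and a protease inhibitor. Cdh1 had 0, 0 and 0 top-scoring summits in EL and 1, 1 and 2 in PT. The reverse was found at Ap1m2, a subunit of the epithelial sorting adaptor. In full lists 1 of the 32 genes had more summits in every PT than in every EL library, against 0.274% of all genes. The reverse held there at 3 genes, against 9.26%. Cdh1 had 1 summit in each EL full list and 1, 1 and 3 in PT, so the groups overlapped. A summit in all 6 full lists was found at 13 of the 32 genes, against 13% of all genes. Crb3, Llgl2, Krt8 and F11r, the examples set by rule, are among them. The rule takes genes with a summit in the most libraries, so their presence in all 6 was fixed by it.

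The other epithelial transcription factor and family genes, 14 in all, gave 4, 8 and 6 genes in EL and 3, 6 and 8 in PT in full lists, and 2, 2 and 1 against 3 each among top-scoring summits. Tfap2a, which encodes an AP-2 factor, had 0 top-scoring summits in each EL library and 3, 3 and 2 in PT. More top-scoring summits in every PT than in every EL library were found at this 1 of the 14 genes, against 1.83% of all genes. In full lists Tfap2a and Ovol3 were bound in all 6 libraries, so 2 of 14 genes against 13% of all genes. Klf4 and Gata3 were bound there in every EL library and in 2 of the PT libraries. Among the 10 genes spliced by ESRP proteins, 6, 8 and 7 had a summit in EL and 3, 3 and 4 in PT, and among top-scoring summits 1, 2 and 3 against 3, 3 and 4. A summit in all 6 full lists was found at 3 of the 10, Enah, Ctnnd1 and Magi1, against 13% of all genes. Of 6 other splicing factor genes 5 were bound in every EL library and 3, 3 and 4 in PT. In all 6 full lists 3 of them were bound, Ptbp1, Qk and Mbnl1, against 13% of all genes. Mbnl2 was bound in 3 EL libraries and 1 PT library. In top lists the numbers for the 6 genes were 3, 4 and 3 in EL and 3 in each PT library.

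The EMT repressor genes, whose products silence Cdh1 and several of the members, ran the other way. Of these 6 genes, 5, 6 and 6 had a summit in EL and 0, 2 and 3 in PT in full lists, and 4, 5 and 5 against 0, 2 and 0 among top-scoring summits. Zeb1, Snai1, Twist1 and Twist2 had more top-scoring summits in every EL than in every PT library, against 2.12% of all genes. In full lists this held at 4 of the 6 genes, against 9.26% of all genes. Zeb1 was not among them, with 2, 1 and 2 summits in EL and 0, 0 and 2 in PT. Among top-scoring summits Snai1 had 3, 2 and 2 in EL and 0, 1 and 0 in PT, and Zeb1 1 in each EL library and 0 in PT. The median difference per gene, EL minus PT, was 1 summit in this list, -0.167 at the 10 members and 0 over all genes, each in top-scoring summits.

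Of the marker lists of other cell types, that of fibroblasts stood apart between the groups. Of 10 fibroblast markers, 7, 8 and 7 had a summit in EL and 0, 1 and 3 in PT in full lists, and 3, 5 and 5 against 0, 0 and 0 among top-scoring summits. Col1a1, Col3a1 and Col1a2 had more top-scoring summits in every EL than in every PT library, against 2.12% of all genes. Pdgfra had a top-scoring summit in 2 EL and no PT libraries. Of 10 leukocyte and endothelial markers 2 were counted in each EL top list and 1, 2 and 2 in PT, with Cd68 in all 6 libraries and Pecam1 in 3 EL and 2 PT. In full lists these were 2, 3 and 2 against 1, 2 and 2. Of 8 lung epithelial markers, 3, 3 and 2 were counted in EL and 1, 2 and 2 in PT top lists, and 4, 4 and 3 against 1, 2 and 3 in full lists, led by Ager, Foxj1 and Sftpc. The groups overlapped for the leukocyte and endothelial markers and for the lung markers in both kinds of list. At 1 of the 8 lung markers, Sftpc, the groups stood apart, with 1, 2 and 1 top-scoring summits in EL and 0 in each PT library. More top-scoring summits in every EL than in every PT library were found at 2.12% of all genes. The part of the cell mixture in the counts at the members was not tested.

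**Figure D5:**
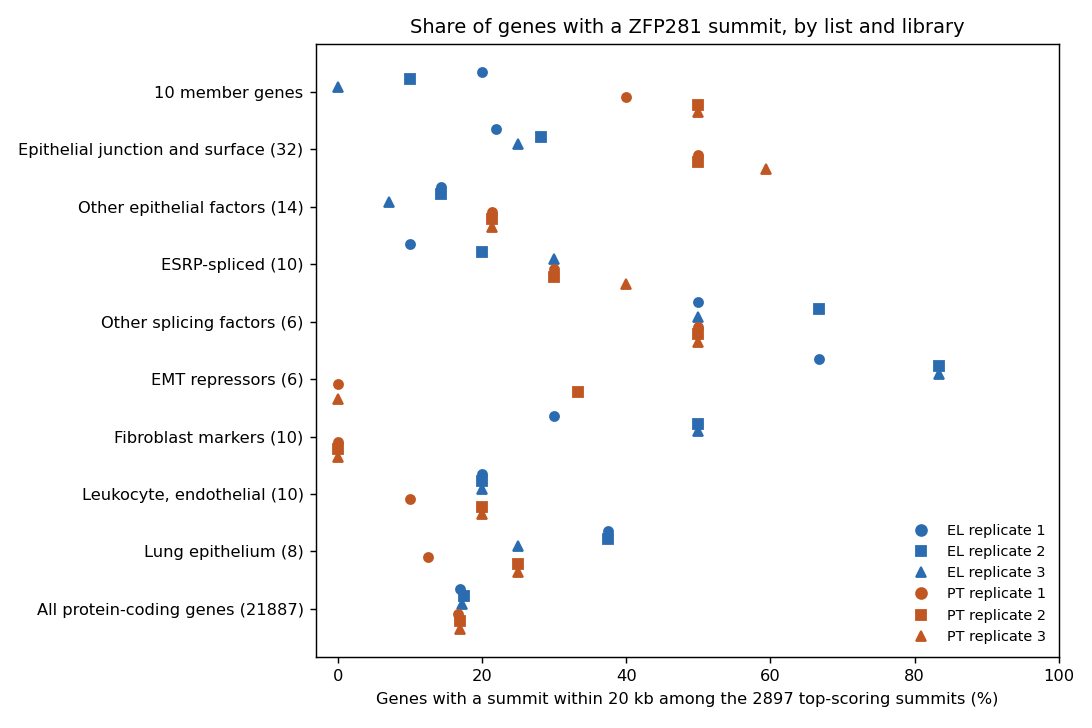
Percentage of the genes of each list with a summit within 20 kb in the top lists, 1 point per library (colour for group, marker for replicate), with the number of genes in brackets. PT points lie to the right of EL points for the members and the 32 junction and surface genes, and to the left for the 6 EMT repressors and the 10 fibroblast markers, while all protein-coding genes lie between 16.7% and 17.6%.

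The genes most like the members were sought by the percentile of the best summit within 20 kb, set to 0 where there was none, over the 6 libraries. The 3 members with the greatest difference between groups on this measure were Grhl1, Grhl3 and Esrp2. For Grhl1 the mean percentile was 0 in EL and 48.2 in PT, and the closest genes were Tc2n, Nbas and Arhgap45, with mean absolute differences of 2.76, 2.84 and 3.21 percentile points. For Grhl3 the means were 45.6 and 82.3, and the closest were Sox9, Sipa1l2 and Lmtk3, at 3.73, 4.32 and 4.35 points. For Esrp2 they were 64.0 and 93.8, with Pla2g15 at 0, since its reach holds the same Esrp2 region, Inpp5e at 1.69 and Nemp2 at 3.71. These are likenesses over 6 libraries only, from lists of unequal length.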

How the data were processed

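Per the labels' protocols, paired reads of 150 bp were produced. The submitters' processing notes name the build mm10 and the tools Bowtie2 2.3.4.3 and Picard. The sources used here do not name the peak caller or say whether inputs entered the calls. Each ZFP281 library has a separate list of summits as deposited. The authors' deposited score, which no label defines, was taken to be −log10 of a q-value from their peak calling, since in each list it begins just above 1.30, the −log10 of 0.05.

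Python 3.11.15, NumPy 2.4.6 and pandas 2.3.3 were used to count summits of the autosomes, X and Y, at 1-based positions, for every protein-coding gene within 20 kb. Top lists held 2897 summits. Gene positions were those of RefSeq for GRCm38.p6. Exons and introns were not analysed here. All 96 genes of 8 further lists were found in it. Tied scores were ordered by position in the list. Each gene was tested by an exact permutation test over all 20 relabellings, with Benjamini-Hochberg adjustment. A p-value is the share of relabellings with a difference in mean, in either direction, at least as large as that seen. It rests on these 6 libraries alone and, with animals not named, does not measure variation between animals. The counting and the test were tested on simulated data. The members and lists were chosen with earlier results of these data known. Genes were named by rule: all members, their neighbours, up to 4 per list, and the 3 most alike. Those named per list by this rule had a summit in the most libraries, so their presence in many libraries was fixed by the choice. Alternatives were other windows, score limits, list lengths, merging distances, each library left out and a replicate block.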

Additional observations from a re-analysis of the deposited data

How the results depend on the processing

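Values are means of EL minus PT unless said otherwise. Among top-scoring summits the direction held in all 15 alternatives, both for summits and for members with one, and the groups did not overlap in 14. Near gene boundaries alone (1 kb) the values were -1.67 summits and -1.33 members and the groups overlapped, and with 1000 top-scoring summits the member value was -2.67. With each library left out the summit value ran from -4.83 to -3.33 and the member value from -4.17 to -3.17. Keeping all ties, chosen after seeing the data, changed neither. In full lists the member value was negative in all 14 alternatives, from -2.33 to -0.833 with a library left out. The full-list summit value of 1 has no stable sign. It was -1.33 within 5 kb, -1 in gene bodies, -0.333 near boundaries, -1.67 for nearest genes only, -0.333 and -1.67 with scores of at least 5 and 10, and -2 to 3 with a library left out, the lowest without EL replicate 2. The cause was not tested.

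Regions in all 6 libraries numbered 0 with merging at 50 bp, 2 at 500 bp, 0 in top lists, and 1 to 3 with a library left out, the highest without EL replicate 3. Regions in every EL and no PT library then numbered 0 to 1, with 1 without EL replicate 1, EL replicate 3, PT replicate 1 or PT replicate 3, and those in every PT and no EL library 1 to 3, the highest without PT replicate 1. In top lists the 1 PT-only region was that of Grhl3.

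With a replicate block the values were 1 and -4 summits and -1.33 and -3.67 members in full and top lists, and 0 genes were called, since the smallest paired p is 0.25. Over 10244 regions, same-numbered libraries of the groups correlated at -0.0232, -0.0302 and -0.0116, and differently numbered ones at -0.0130 to 0.0352. These values show no pairing by number, but they cannot exclude a shared batch, which was not tested. They were used only to compare same-numbered with differently numbered pairs. They are not a measure of how alike EL and PT binding was, since 1573 regions were found in all 6 libraries. Unknown depth limits every count.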
